A study of Mus musculus with 3 samples.

Results

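Mature neutrophil-like cells made up 2452 of the 17879 cells kept from 3 libraries of mouse bone marrow, or 13.7%, and this account describes what they expressed in each Fabp4 genotype. They were chosen on measured values: a cell had to hold 3 or more UMIs (unique molecular identifiers, each standing for 1 captured transcript) of Il1b, G0s2, Cxcr2 and Retnlg together, with at least 2 of these 4 genes detected. S100a8 and S100a9 had to take 3% or more of its UMIs, and fewer than 3 of 7 monocyte genes (Csf1r, Ccr2, F13a1, Ms4a6c, Fn1, Klf4 and Cx3cr1) could be detected. Barcodes counted as cells where they reached 500 UMIs and 200 genes and kept their mitochondrial share under 10%. The wild-type library gave 135 mature cells of 5604, the heterozygous knockout library 2166 of 7957 and the homozygous knockout library 151 of 4318.

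Neutrophils are short-lived phagocytes made in the bone marrow. As they mature they pack granules in a fixed order, with primary granule proteases in promyelocytes, secondary granule proteins in myelocytes and metamyelocytes, and gelatinase granules last, while division stops. Mature cells carry chemokine and growth factor receptors at the surface, answer danger signals with cytokines, and switch on antiviral genes when they meet interferon. Fabp4, the gene knocked out here, encodes a small carrier of fatty acids best known from fat cells and macrophages.

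Each library was 1 pool of marrow from 2 mice: wild type, heterozygous for the Fabp4 knockout, or homozygous for it. The labels give no strain, age, sex, knockout allele, disease state or treatment, and the cells carry no mark of which mouse they came from. With 1 library per genotype there is no test and no replicate spread, so genotype cannot be told apart from mouse, sex or library. Intervals are 95% intervals for counting error only, exact except for ratios of 2 shares, which carry log-normal ones. The values below are CPM, each gene's UMIs scaled to 1000000 UMIs of the mature cells, summed over the cells of a library, and 3 values in a row stand for the wild-type, heterozygous and homozygous libraries in that order. A log2 ratio is a difference between a knockout and the wild-type library unless another pair is named, and both ratios share the wild-type library.

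Fabp4 itself, the check of the labels, gave 50, 38 and 5 UMIs over all cells kept, or 0.745 (0.553 to 0.982), 0.521 (0.369 to 0.716) and 0.108 (0.0352 to 0.253) CPM. It was lowest in the library labelled homozygous, and at these counts it was barely detected in any. In the mature cells it gave 0, 3 and 1 UMIs, so no genotype difference in Fabp4 was detectable within them. Which part of the gene the knockout removes is not given in the sources used here, and reads at the 3′ end outside that part would still be counted.

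The mature cells of the 3 libraries had similar depth. Their median UMI counts were 6058, 6762 and 6605, their median numbers of detected genes 2233, 2244 and 2197, and their median mitochondrial shares 0.974%, 0.785% and 0.725%. The summed UMIs behind the values were 926699, 17623242 and 1113592, so the heterozygous library measures far rarer transcripts than the others. Sex-linked RNA differed strongly between libraries. Xist, the RNA that coats the inactive X chromosome of females, was detected without any Y-linked RNA in 66.7%, 4.34% and 58.9% of the mature cells. Y-linked RNA without Xist was detected in 5.19%, 68.3% and 2.65% of them. The heterozygous pool was therefore mostly cells with Y-linked RNA, and heterozygous values over the 90, 94 and 89 mature cells with Xist and no Y-linked UMI are given for the main groups and for selected genes. The libraries shared 21 to 26 cell barcodes pairwise.

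The label was checked on genes that the choice of cells did not use. Csf3r, the receptor for the granulocyte growth factor G-CSF and a marker of neutrophils, stood at 204, 166 and 238 CPM in the mature cells. In immature neutrophil cells, defined by the same S100a8 and S100a9 share with 10 or more UMIs of the secondary granule genes Ltf, Camp and Ngp, it stood at 65.9, 83.2 and 85.2 CPM. Csf3r was thus higher in the mature cells of all 3 libraries. Il1r2, the decoy receptor for interleukin 1, stood at 445, 516 and 428 CPM in mature and 75.1, 172 and 58.5 CPM in immature cells. Mmp8, the neutrophil collagenase, stood at 572, 646 and 653 CPM against 66.9, 202 and 106 CPM, and Mxd1, a MYC antagonist of terminal differentiation, at 559, 561 and 673 CPM against 169, 249 and 159.6 CPM. Of the secondary granule genes that defined the immature cells, Camp and Ngp were lower in the mature cells of all 3 libraries. Ltf went the other way, at 1224, 1337 and 618 CPM in mature against 708, 1147 and 549 CPM in immature cells.

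The genes with the largest lowest ratio of mature to immature cells over the 3 libraries, gate genes left out, were Acod1, Asprv1, Clec4d, Arhgap24, Bst1, Nlrp3, Ankrd33b, Cyp4f18, Gcnt2 and Ccl6. Acod1 makes the antimicrobial metabolite itaconate, Clec4d is a C-type lectin receptor for fungal and mycobacterial glycolipids, and Nlrp3 is an inflammasome sensor. Acod1 was 9.98, 6.92 and 20 times its immature level, Clec4d 17.0, 6.20 and 22.9 times, and Ccl6, a chemokine of granulocytes, 5.53, 4.59 and 17.9 times. For all 10 genes the ratio was smallest in the heterozygous library. Genes at the other end included Syce2, Psmc3ip, Pole2, Fanci, Sh3rf1, Cenps, Exo1, Cntln and Vcam1, among which Pole2, Fanci and Exo1 serve DNA synthesis and repair.

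Markers of several other cell types were sparse in the mature cells, where 10 erythroid genes summed to 1.08, 8.23 and 0 CPM and 10 T and NK genes to 3.24, 4.65 and 7.18 CPM, with 9, 3 and 10 erythroid and 8, 3 and 8 T and NK genes at 0. The 13 monocyte genes, of which 7 served to leave cells out, summed to 909.7, 895 and 805 CPM with none at 0. The 9 dendritic cell genes summed to 45.3, 128 and 30.5 CPM, highest in the heterozygous library, with 3, 0 and 4 of them at 0. All 5 measured against wild type were higher there, with a median log2 ratio of 2.05. At least 2-fold higher were 3, against 7.61% of all genes. The 6 megakaryocyte genes summed to 5.40, 14.5 and 4.49 CPM from 5, 255 and 5 UMIs, with 2, 0 and 3 of them at 0, and all 4 measured were higher in the heterozygous cells, with a median of 1.43 and 3 at least 2-fold higher. The 9 stem and progenitor genes summed to 592, 562 and 390 CPM, of which Mecom alone gave 560.1, 536 and 381 CPM. The part of other cells' RNA in the results was not tested. As a measure of free RNA, T and NK cells (25, 19 and 38 cells) held the neutrophil gene Camp, which the choice of mature cells did not use, at 500, 660 and 221 CPM, against 6942, 13652 and 10476 CPM in the mature cells. Of the genes used for the choice they held Retnlg at 4.63, 40.5 and 2.01 CPM, G0s2 at 4.63, 63.7 and 2.01 CPM and Il1b at 0, 34.7 and 8.04 CPM, each highest in the heterozygous library. Retnlg stood at 1296, 1293 and 1195 CPM in the mature cells, a level that the rule itself raises.

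The 6 genes used to choose the cells are given as a description. Il1b stood at 172, 291 and 455 CPM, G0s2 at 127, 432 and 112 CPM, Cxcr2 at 165, 91 and 194 CPM, S100a8 at 50300, 51074 and 59709 CPM and S100a9 at 47576, 53567 and 68381 CPM. Il1b and S100a9 were highest in the homozygous library, and G0s2, an inhibitor of fat breakdown, in the heterozygous one. At the edge of the rule, 27, 248 and 13 mature cells held exactly 3 UMIs of the 4 genes, while 31, 307 and 37 cells that met the other parts of the rule held 2. Mature cells with an S100a8 and S100a9 share of 3% to 4% numbered 6, 68 and 2, and 3, 54 and 1 cells fell short at 2% to 3%. Cells with exactly 2 of the 7 monocyte genes, 14, 273 and 19 in number, were kept, and 5, 76 and 10 with exactly 3 were left out.

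Mature neutrophil-like cells took a far larger share of the heterozygous library than of the others. They were 2.41% (2.02 to 2.85) of the wild-type cells, 27.2% (26.2 to 28.2) of the heterozygous cells and 3.50% (2.97 to 4.09) of the homozygous cells. The heterozygous share was 11.3 (9.53 to 13.4) times and the homozygous share 1.45 (1.15 to 1.82) times that of wild type. The heterozygous library also held more neutrophils in all: mature and immature neutrophil cells together were 18.3%, 53.3% and 16.5% of cells. Among those alone, the mature share was 13.2% (11.2 to 15.4), 51.0% (49.5 to 52.5) and 21.2% (18.3 to 24.4). Both knockout libraries thus held more mature cells per neutrophil than wild type, by 3.87 (3.30 to 4.54) and 1.61 (1.30 to 1.99) times.

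The share also differed with the sex-linked RNA detected inside the wild-type and heterozygous libraries. Among cells with Xist and no Y-linked UMI, 1.75% (1.41 to 2.14), 8.19% (6.67 to 9.93) and 2.45% (1.97 to 3.0) were mature, and among cells with Y-linked RNA and no Xist, 9.46% (3.89 to 18.5), 32.8% (31.4 to 34.2) and 2.82% (0.773 to 7.06). The homozygous intervals overlap, so no difference was detectable there. The heterozygous library was highest in both kinds of cell. The wild-type and homozygous values for Y-linked cells rest on 74 and 142 cells, of which 7 and 4 were mature. Neither kind of RNA was detected in 21.5%, 18.4% and 37.1% of the mature cells, which both shares leave out. In wild type, Xist without Y-linked RNA was found in 5151 of 5604 cells, but in 66.7% of the mature ones. The part of missed detection in these shares was not tested. The heterozygous ratio lay between 7.59 and 20.5 under other settings of the rule, the highest value with every cell thinned to 1000 UMIs, where 20, 572 and 32 cells passed.

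**Figure D1:**
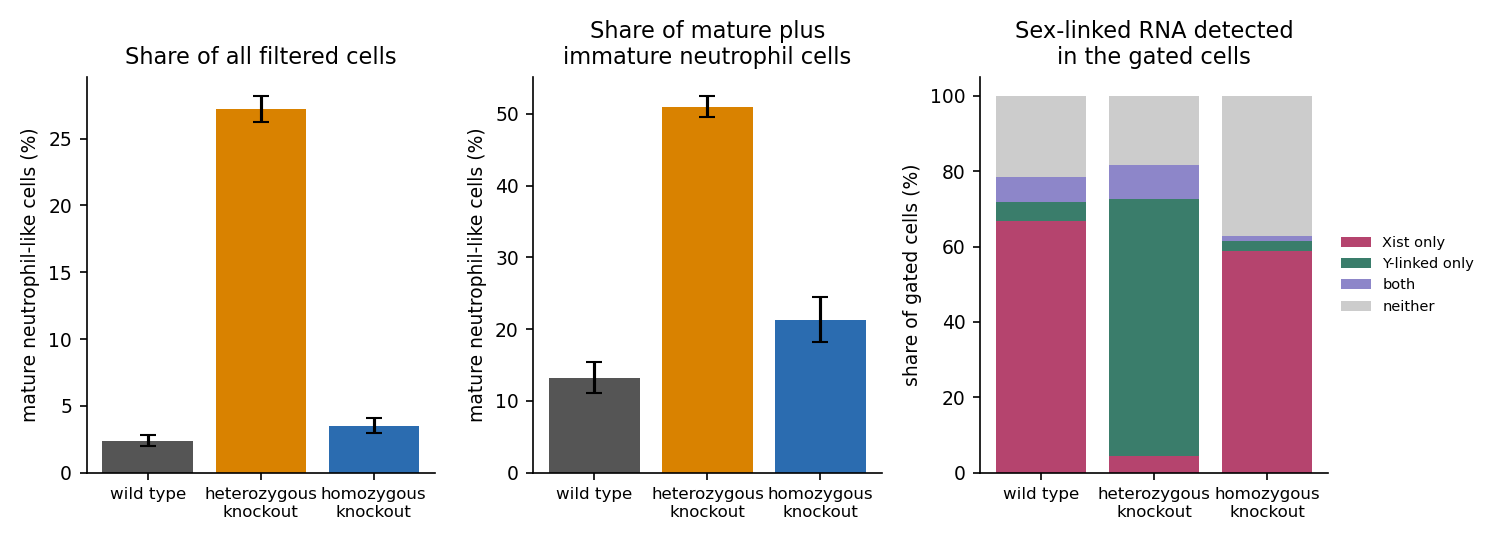
Mature neutrophil-like cells as a share (%) of all cells kept (left) and of mature plus immature neutrophil cells (middle), with exact 95% binomial intervals as error bars, and the sex-linked RNA detected in the mature cells (right, stacked %). The heterozygous bar stands at 27.2% on the left and 51.0% in the middle, and 68.3% of its mature cells had Y-linked RNA only.

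Within the mature cells, the secondary granule genes Ltf, Camp and Ngp, whose RNA is made before the last steps of maturation, were taken as a share of each cell's UMIs. The median share was 0.780%, 1.40% and 0.729%. From the 10th to the 90th percentile the wild-type cells ran from 0.0668% to 3.16%, the heterozygous from 0.174% to 4.81% and the homozygous from 0.0368% to 3.67%. Cells under 0.5% were 42.2%, 28.3% and 40.4% of the mature cells. Cells at 5% or more were 3.70%, 8.73% and 3.97%. The heterozygous mature cells were therefore shifted towards more granule RNA, while the wild-type and homozygous distributions lay close together.

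**Figure D2:**
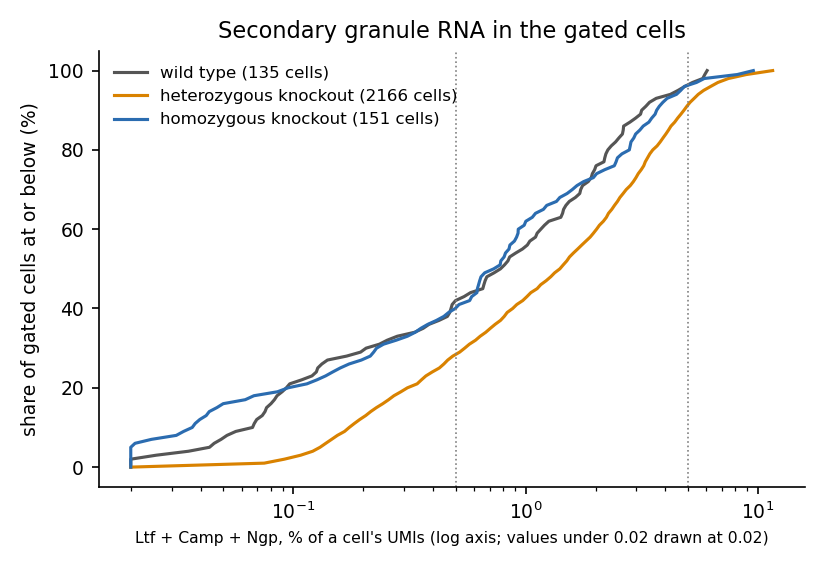
Cumulative share (%) of the mature neutrophil-like cells of each library against the share of a cell's UMIs from Ltf, Camp and Ngp (log axis), with dotted lines at 0.5% and 5%. The heterozygous curve lies to the right, with a median of 1.40% against 0.780% and 0.729%.

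Gene by gene, 7293 genes had at least 20 UMIs in the homozygous and wild-type mature cells together. Of these 263 (3.61%) were at least 2-fold higher and 269 (3.69%) at least 2-fold lower in the homozygous library. In the heterozygous library 892 of 11727 (7.61%) were at least 2-fold higher and 621 (5.3%) lower than in wild type. The heterozygous library held far more UMIs, so a gene could pass the limit through that library alone. With at least 10 UMIs expected in the smaller library, 279 of 7092 genes (3.93%) were higher and 85 (1.20%) lower. Between the knockouts, 468 of 11840 (3.95%) were at least 2-fold higher and 1029 (8.69%) lower in the homozygous library. The shares at the limit of 20 UMIs are the background for each list below, whose members met the same limit. The median log2 ratio of all genes compared was -0.05, -0.01 and -0.05 in the 3 comparisons. When ratios were centred on that median, or when totals left out 9 genes above 1% of UMIs, the homozygous counts were 309 and 236, or 316 and 228, a split that leaned more towards higher genes.

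Most interferon-response genes were higher in the homozygous mature cells than in wild type. Of 60 genes in the list, 40 were measured against wild type: 35 were higher, 5 were lower, and 19 were at least 2-fold higher, against 3.61% of all genes. Their median log2 ratio was 0.89 (range -0.54 to 3.98), against -0.05 for all genes. In the heterozygous cells 46 were measured, with 9 higher and 37 lower and a median of -0.40. Of the 46, 3 were at least 2-fold higher, against 7.61% of all genes, and 10 at least 2-fold lower, against 5.3%. Set directly against the heterozygous cells, 47 of 51 were higher in the homozygous cells, with a median of 1.45 and 37 at least 2-fold higher, against 3.95% of all genes. The list was chosen with earlier results of these data known, so these counts describe it and do not test it.

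The promoters of 5 members, Isg15, Rsad2, Ifit3, Ifit1 and Slfn5, are shown as examples of a sequence feature that the choice of cells did not use. They are not the 5 strongest members. Ifit3 had too few UMIs to be among the members measured against wild type. Ifit2, Ifi27l2a, Usp18 and Xaf1 had larger homozygous ratios than Slfn5 and are not shown. All 5 promoters hold the feature, but only 26 of the 45 list members with a promoter do. Type I interferon acts through a transcription factor complex that binds interferon-stimulated response elements, whose core can be written TTCNNTTTC. The sequences are the 160 bases before each RefSeq gene start in GRCm38.p6, read 5′ to 3′ along the gene's strand, and capitals mark TTCNNTTTC or its reverse complement GAAANNGAA. They lie at chr4:156200819-156200978 (minus strand), chr12:26456453-26456612 (minus strand), chr19:34583369-34583528 (plus strand), chr19:34640729-34640888 (plus strand) and chr11:82951942-82952101 (plus strand), in the order of the genes shown.
Isg15: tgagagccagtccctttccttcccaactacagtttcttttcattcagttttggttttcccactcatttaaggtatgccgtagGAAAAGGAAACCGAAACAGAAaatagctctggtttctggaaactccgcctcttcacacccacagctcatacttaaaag
Rsad2: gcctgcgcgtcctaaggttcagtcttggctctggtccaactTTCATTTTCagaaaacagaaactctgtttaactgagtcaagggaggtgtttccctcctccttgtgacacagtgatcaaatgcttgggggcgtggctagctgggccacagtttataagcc
Ifit3: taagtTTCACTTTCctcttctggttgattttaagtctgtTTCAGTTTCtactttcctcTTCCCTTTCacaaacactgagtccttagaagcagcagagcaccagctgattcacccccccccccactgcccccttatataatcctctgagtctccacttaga
Ifit1: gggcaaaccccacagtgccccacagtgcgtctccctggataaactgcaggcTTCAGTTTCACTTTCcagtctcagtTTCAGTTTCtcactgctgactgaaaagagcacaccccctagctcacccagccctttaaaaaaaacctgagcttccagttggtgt
Slfn5: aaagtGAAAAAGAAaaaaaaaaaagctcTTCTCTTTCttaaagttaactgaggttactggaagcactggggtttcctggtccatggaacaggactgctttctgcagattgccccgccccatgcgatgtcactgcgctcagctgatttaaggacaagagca

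In the Isg15 promoter 3 overlapping matches began 78, 72 and 66 bases before the gene start. Ifit3 and Ifit1 also held 3 matches each, Slfn5 held 2, and Rsad2 held 1, which began 119 bases before the start. Among 300-base promoters (250 bases before to 50 after the start), 26 of the 45 list members found in the RefSeq table held a match on either strand, or 57.8%. Of all 27025 symbols in the table, 2638 did, or 9.76%. Among members at least 2-fold higher in the homozygous cells, 10 of 14 with a promoter held one, and among the other members 16 of 31. A match describes the letters of the window and is not evidence of a bound site.

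Isg15, a ubiquitin-like protein attached to other proteins during antiviral responses, stood at 41.0 CPM (95% interval 29.0 to 56.3) in wild-type, 29.8 CPM (95% interval 27.3 to 32.5) in heterozygous and 171 CPM (95% interval 147 to 197) in homozygous mature cells. The homozygous library was the high one, 4.16-fold above wild type, and its interval did not meet the others. Cells with at least 1 Isg15 UMI were 17.0%, 16.4% and 36.4% of the mature cells, and cells with 3 or more were 2.22%, 1.89% and 19.9%. With every cell thinned to 1000 UMIs the shares with a UMI were 4.44%, 3.10% and 15.9%. In T and NK cells 8%, 10.5% and 18.4% held an Isg15 UMI, at median depths of 5996, 8074 and 11454 UMIs.

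Rsad2 (viperin, which makes an antiviral nucleotide) stood at 5.40, 6.41 and 55.7 CPM, with a homozygous log2 ratio of 3.37 (2.07 to 5.04). Ifi27l2a, a mitochondrial protein induced by interferon, stood at 51.8, 53.8 and 288 CPM, with a ratio of 2.48 (2.04 to 2.95). For both, the wild-type and heterozygous levels lay side by side and the homozygous level was several times higher. Xaf1, an antagonist of apoptosis inhibitors, stood at 6.47, 7.60 and 33.2 CPM, and Usp18, which removes Isg15 from proteins and damps the interferon receptor, at 4.32, 4.31 and 22.4 CPM. Oasl2 stood at 7.55, 4.20 and 26.0 CPM and Ifit1, which binds viral RNA caps, at 2.16, 1.87 and 16.2 CPM from 2, 33 and 18 UMIs. Ifit3 and Oasl1 had no UMI in the wild-type cells and 18 each in the homozygous cells, at least 4.99-fold higher against a floor of 3 counts in the wild-type library. Their heterozygous counts were 18 and 49 UMIs. Ifit3 and Ifit3b are near-identical copies, so reads may be split between them.

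A regulator of the pathway followed the same order of libraries. Irf7, the transcription factor that amplifies interferon production, stood at 35.6, 34.0 and 109.6 CPM with a homozygous log2 ratio of 1.62 (1.06 to 2.22). Its wild-type and heterozygous levels differed by less than their counting intervals. Not every member was high. Irf1 stood at 133, 125 and 91.6 CPM, Ly6e at 115, 54.0 and 84.4 CPM, Epsti1 at 208, 171 and 165 CPM and Ifitm3, which blocks viral entry at endosomes, at 1648, 749 and 1605 CPM. These 4 and Sp100 were the 5 members below wild type in the homozygous cells, of which Sp100 and Ifitm3 were above it when ratios were centred on the median of all genes.

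Another group of members was lower in the heterozygous cells than in both other libraries. Ifitm3 had a heterozygous log2 ratio of -1.14 (-1.21 to -1.06). Its neighbours Ifitm1 and Ifitm2, which were not in the list, stood at 448, 117 and 313 CPM and 1539.9, 551 and 1058 CPM. Oas3, an RNA sensor that activates RNase L, stood at 56.1, 20.3 and 67.3 CPM, Trim30a at 65.8, 25.5 and 88.9 CPM, the RNA exonuclease gene Isg20 at 42.1, 16.7 and 63.8 CPM and Slfn5, of the Schlafen family, at 23.7, 9.02 and 83.5 CPM. The Slfn5 ratio was -1.40 (-2.04 to -0.68) in the heterozygous and 1.81 (1.13 to 2.56) in the homozygous cells. Rtp4, at 22.7, 10.3 and 65.6 CPM, and Slfn1, at 207, 115 and 309.8 CPM, had the same order of libraries, with the heterozygous lowest and the homozygous highest.

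The homozygous interferon difference was also seen outside the mature cells and in subsets of them. Its median log2 ratio was 0.49 in immature neutrophil cells, where 38 of 46 members were higher, and 1.21 in cells with 3 or more of the monocyte genes, where 56 of 58 were. Among mature cells with Xist and no Y-linked UMI it was 0.59, with 25 of 33 higher. Among mature cells under 0.5% granule RNA it was 0.88, and among those from 0.5% to 5% it was 0.69. The heterozygous median was -0.45 in the Xist cells and -0.40 and -0.55 in the granule bands, but 0.00 in immature and 0.17 in monocyte-marker cells. The difference between these cell classes was not tested. Isg15 itself was highest in the homozygous cells with least granule RNA, at 354 CPM against 50.8 and 51.0 CPM in the wild-type and heterozygous ones.

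**Figure D3:**
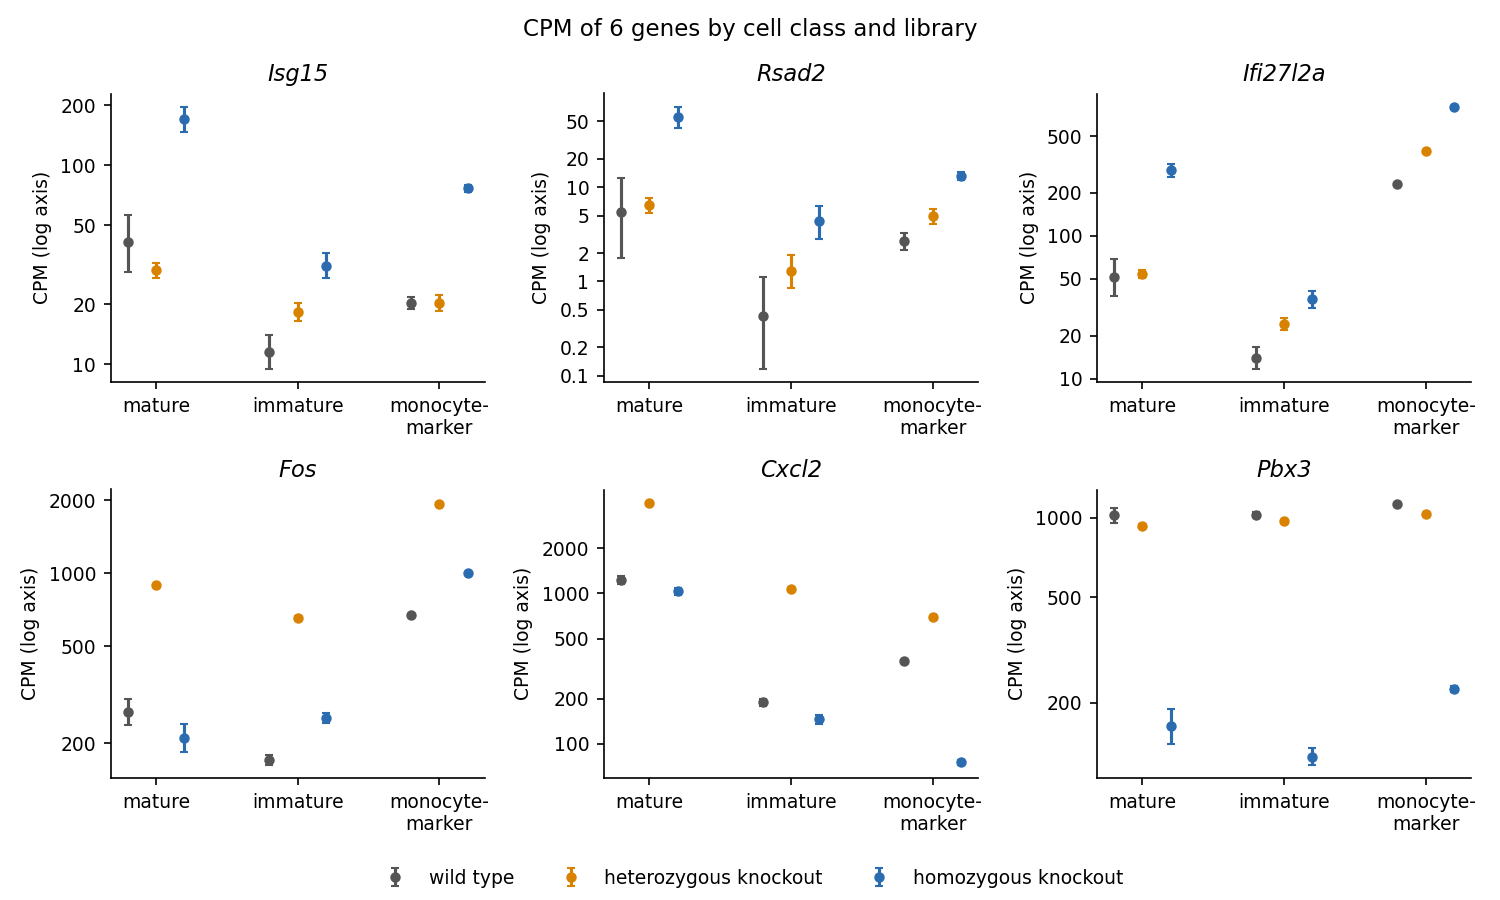
CPM (log axes) of 6 genes in mature, immature and monocyte-marker cells of each library, with exact 95% Poisson intervals for counting error. Isg15, Rsad2 and Ifi27l2a are highest in the homozygous library in every class shown, Fos and Cxcl2 are highest in the heterozygous library, and Pbx3 is lowest in the homozygous library, at 163 CPM in mature cells.

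Immediate early genes, which cells switch on within minutes of a stimulus, were higher in the heterozygous mature cells. Of 19 genes, 18 were higher than wild type and 9 at least 2-fold higher, against 7.61% of all genes, with a median log2 ratio of 0.78. In the homozygous cells 12 of 18 measured were higher, none of them 2-fold, with a median of 0.17. Fos, a subunit of the transcription factor AP-1, stood at 269, 893 and 210.1 CPM, with a heterozygous log2 ratio of 1.73 (1.55 to 1.92). Fosb, its relative, stood at 86.3, 410.1 and 115 CPM (2.25 (1.93 to 2.58)) and Egr1, an early zinc finger factor, at 38.8, 194 and 62.0 CPM (2.32 (1.85 to 2.84)). In each the heterozygous library alone was high, and the other 2 lay within 2-fold of each other.

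Jun, the partner of Fos, stood at 569, 1320.0 and 608 CPM, Klf2, a factor that holds leukocytes in a quiescent state, at 1729.8, 3748 and 2047 CPM, and Nr4a1, an orphan nuclear receptor, at 56.1, 161 and 92.5 CPM. Dusp1, a phosphatase that ends kinase signalling, stood at 286, 652 and 192 CPM and was lowest in the homozygous cells. Fosl2, at 93.9, 90.4 and 101 CPM, was the member that was not higher in the heterozygous cells. The heterozygous median was 0.88 in immature cells, 0.88 in monocyte-marker cells and 0.93 in mature cells with Xist and no Y-linked UMI, so it was as large without the cells that had Y-linked RNA. T and NK cells also held Fos, at 500, 1135 and 818 CPM.

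Cytokine and chemokine genes followed the same direction in the heterozygous cells. Il1b served to choose the cells and is left out of the counts. Of 17 measured, 13 were higher than wild type and 5 at least 2-fold higher, against 7.61% of all genes, with a median of 0.53. In the homozygous cells 7 of 12 were higher, with a median of 0.08. Il10, Il1a, Cxcl3, Cxcl10 and Ptgs2 met the limit on UMIs in the heterozygous comparison only, so the counts cover different genes. Their heterozygous log2 ratios were -0.34, 0.27, 0.27, 4.78 and, as a lower bound, 1.27. Cxcl10 and Ptgs2 were thus among the genes at least 2-fold higher there. The difference between the knockouts over the shared genes alone was not tested. Cxcl2, a chemokine that draws neutrophils through Cxcr2, stood at 1226, 3987 and 1031 CPM, with a heterozygous log2 ratio of 1.70 (1.62 to 1.79). Ccl3, a chemokine for monocytes and neutrophils, stood at 242, 651 and 383 CPM, Osm, an interleukin 6 family cytokine, at 71.2, 157 and 73.6 CPM and Tnf at 199.6, 343 and 295 CPM. Cxcl2 was found in 71.9%, 94.6% and 71.5% of the mature cells, and in 4%, 68.4% and 13.2% of T and NK cells, where its levels were 4.63, 417 and 56.3 CPM. The Cxcl2 level of T and NK cells was thus also highest in the heterozygous library, well under the level in its mature cells.

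Cxcl10, a chemokine for T cells that interferon induces, gave 1, 522 and 4 UMIs in the mature cells, with a heterozygous log2 ratio of 4.78 (2.29 to 10.09). The wild-type side of that ratio is 1 UMI. Ptgs2, the inducible enzyme of prostaglandin synthesis, gave 0, 138 and 2 UMIs, counts not scaled to the far larger heterozygous total. Nlrp3 stood at 88.5, 159 and 111 CPM and Thbs1, the matrix protein thrombospondin 1, at 223, 385 and 332 CPM. Over the cells with Xist and no Y-linked UMI, 9 of 11 measured genes of the list were higher in the heterozygous library, with a median of 0.65. The NF-kB list had medians of 0.05 over 18 genes in the heterozygous and 0.08 over 17 in the homozygous cells, near those of all genes.

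**Figure D4:**
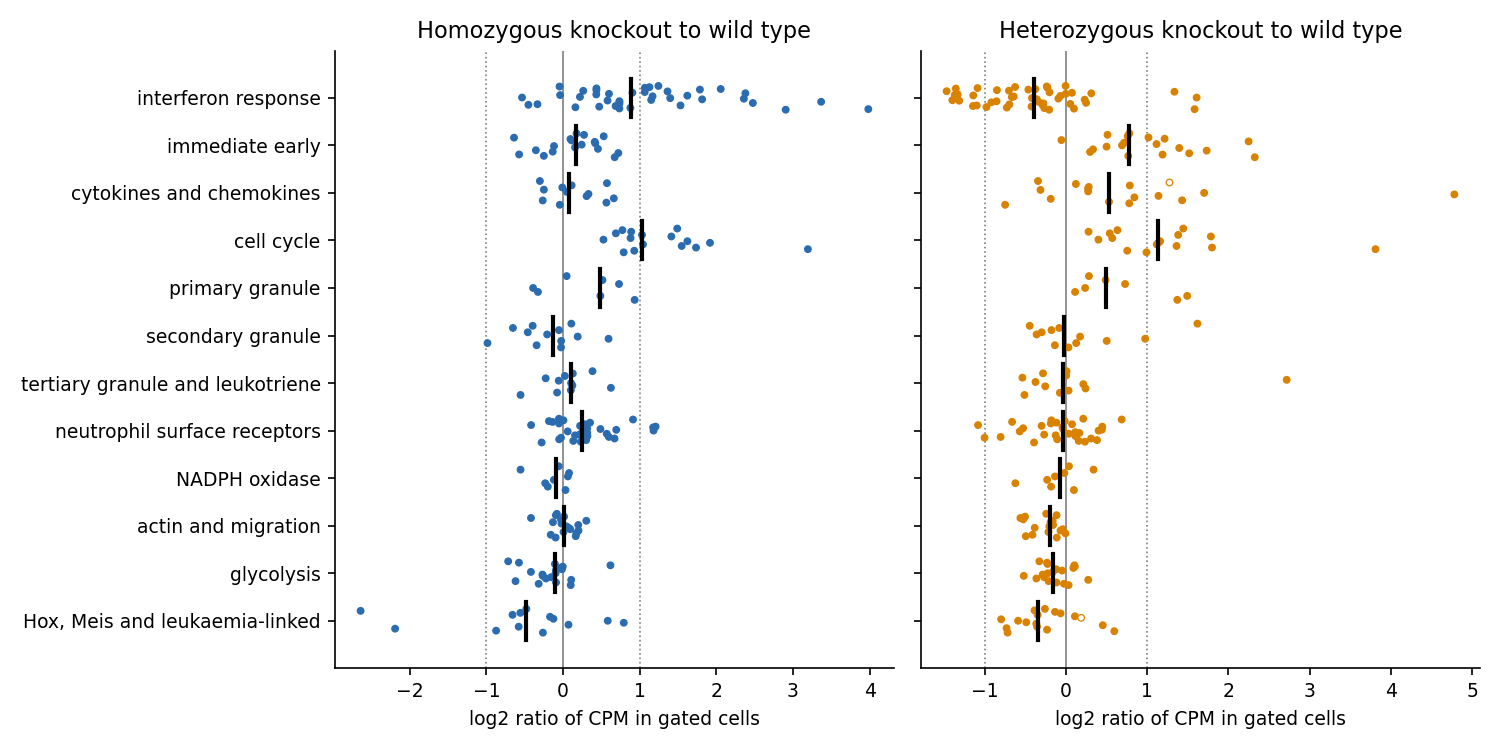
Log2 ratio of CPM in mature neutrophil-like cells to wild type for the measured members of 12 gene lists, homozygous (left) and heterozygous (right), with 1 point per gene, open points for bounds against a library without UMIs, black bars for medians and dotted lines at 2-fold. Interferon-response genes lie to the right of 0 in the homozygous panel and mostly to the left in the heterozygous one, and immediate early genes lie to the right in the heterozygous panel.

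Cell cycle genes, which neutrophils lose as they mature, were low in the mature cells of all libraries and lowest in wild type. All 16 were higher in both knockout libraries, 9 of them at least 2-fold in each, against 3.61% and 7.61% of all genes, with medians of 1.04 in homozygous and 1.13 in heterozygous cells. Top2a, the topoisomerase of dividing cells, stood at 39.9, 103 and 117 CPM, against 208, 190.0 and 375 CPM in immature cells. Mki67 stood at 65.8, 97.8 and 121 CPM against 186, 163 and 339.8 CPM, and Stmn1, a microtubule regulator, at 105, 273 and 214 CPM against 590.1, 547 and 949 CPM. Mature levels thus stayed below the immature levels in each library. Rrm2, which makes the building blocks of DNA, gave 2, 533 and 22 unscaled UMIs, so its ratios rest on 2 wild-type molecules.

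The 2 knockouts differed in what the immature cells showed. There the cell cycle median was 0.62 in the homozygous library, with 16 of 16 higher, and -0.19 in the heterozygous library, with 2 of 16 higher. In mature cells under 0.5% granule RNA the medians were 0.40 over 6 measured genes and 0.27 over 15, smaller than in all mature cells. In the band from 0.5% to 5% they were 1.06 and 0.88. The difference between the bands was not tested, and the ratio in the lowest band rests on few UMIs. When 3 of the 4 choosing genes had to be detected, the homozygous Top2a ratio was -0.40, and with cells thinned to 1000 UMIs the heterozygous one was -0.93.

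Granule genes differed by granule class and by gene. Of the primary granule genes, 7 of 7 were higher than wild type in the heterozygous and 5 of 7 in the homozygous cells, with a median of 0.49 in both. At least 2-fold higher were none in the homozygous and 2 in the heterozygous cells, against 3.61% and 7.61% of all genes. With equal weight per cell the medians were 0.28 in the homozygous and 0.24 in the heterozygous cells. Elane, neutrophil elastase, stood at 341, 565 and 566 CPM, but its heterozygous ratio over the cells with Xist and no Y-linked UMI was -0.69 (-0.98 to -0.41), on the other side of wild type. Over those cells 4 of 7 primary granule genes were higher in the heterozygous library, with a median of 0.19. Prtn3, proteinase 3, stood at 259, 364 and 370.0 CPM and Ms4a3, a marker of granulocyte and monocyte progenitors, at 58.3, 151 and 111 CPM. Mpo, myeloperoxidase, was low everywhere, at 38.8, 45.8 and 29.6 CPM. The secondary granule genes had no common direction, with 3 of 12 higher in homozygous and 6 of 12 in heterozygous cells and medians of -0.13 and -0.02, and under the other scalings 3 to 6 of 12 were higher in homozygous and 5 to 6 in heterozygous cells. Ltf, the iron-binding lactoferrin, stood at 1224, 1337 and 618 CPM, with a homozygous log2 ratio of -0.99 (-1.12 to -0.85), while Camp, the cathelicidin, stood at 6942, 13652 and 10476 CPM and was lowest in wild type. Fcnb, a ficolin of immature neutrophils, stood at 168, 517 and 181 CPM, with the heterozygous library high and the other 2 close together.

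Gelatinase granule and leukotriene genes had medians of 0.10 in homozygous and -0.03 in heterozygous cells. Mmp9, gelatinase B, stood at 700.3, 577 and 765 CPM. Alox5, the enzyme that starts leukotriene synthesis, stood at 5.40, 35.5 and 10.8 CPM, with a heterozygous log2 ratio of 2.72 (1.49 to 4.34) from 5, 625 and 12 UMIs, and of 0.74 (-1.24 to 2.96) over the cells with Xist and no Y-linked UMI. Of the genes of the NADPH oxidase, which makes the oxidative burst, 3 of 8 were higher in each knockout, with medians of -0.09 and -0.08. Ncf4, a cytosolic subunit, stood at 813, 528 and 691 CPM.

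Surface receptors were on balance slightly higher in the homozygous cells, with 23 of 31 higher, against 45.1% of all genes, and a median of 0.25. At least 2-fold higher were 3, against 3.61% of all genes. The 3 were Ptafr, the receptor for platelet-activating factor, at 62.6, 85.4 and 145 CPM, Clec7a (dectin-1, a receptor for fungal beta-glucan), at 31.3, 41.4 and 70.9 CPM, and Tnfrsf1b, a TNF receptor, at 22.7, 22 and 51.2 CPM. In the heterozygous cells 14 of 31 were higher, with a median of -0.03. Tlr4, the receptor for bacterial lipopolysaccharide, stood at 32.4, 15.3 and 24.2 CPM, and Csf2rb, the shared chain of the GM-CSF receptor, at 84.2, 42.1 and 82.6 CPM, lowest in the heterozygous library. Cxcr4, which holds neutrophils in the marrow, stood at 86.3, 139 and 163 CPM, lowest in wild type.

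Actin and migration genes showed a small difference in 1 direction. All 18 were lower in the heterozygous cells than in wild type, with a median of -0.20 and none 2-fold, and all 18 were lower there than in the homozygous cells. Under each of 3 other scalings of the totals, 17 of the 18 remained below wild type. In the homozygous cells 10 were higher and 8 lower than wild type, with a median of 0.01. In the immature heterozygous cells 14 of 18 were higher, so the mature and immature cells lay on opposite sides of wild type, a difference that was not tested. Over mature cells with Xist and no Y-linked UMI, 2 of 18 were higher and the median was -0.18.

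Pbx3, a homeodomain partner of Hox proteins linked to leukaemia, was the first of the lower genes in the homozygous mature cells. It was ranked by the distance of its ratio interval from no difference, among genes with at least 50 UMIs in 1 of the libraries. Sex-linked, ribosomal protein, mitochondrial, haemoglobin, antigen receptor, immunoglobulin and unnamed genes were left out. Pbx3 stood at 1019.8 CPM (95% interval 956 to 1087) in wild-type, 929.6 CPM (95% interval 915 to 944) in heterozygous and 163 CPM (95% interval 141 to 189) in homozygous cells, a log2 ratio of -2.64 (-2.88 to -2.41). The homozygous library alone was low. A Pbx3 UMI was found in 79.3%, 89.4% and 28.5% of the mature cells, and in 60.0%, 63.2% and 44.7% of T and NK cells. The homozygous ratio was -3.03 in immature and -2.32 in monocyte-marker cells. It moved with sex-linked RNA. Among mature cells with Xist and no Y-linked UMI, Pbx3 stood at 1044, 1038 and 70.5 CPM, a homozygous ratio of -3.89 (-4.32 to -3.49). Among those with Y-linked RNA and no Xist, it stood at 965, 918 and 1234 CPM, a ratio of 0.35 (-0.39 to 1.09) that rests on 7 wild-type and 4 homozygous cells.

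Other Hox partners and leukaemia-linked genes were also detected and differed less. Meis1, a cofactor of Hox proteins, stood at 856, 669.5 and 573 CPM in the mature cells and 153, 289.5 and 173 CPM in T and NK cells. Dach1 stood at 1346, 1146 and 735 CPM, Mecom, a stem cell transcription factor, at 560.1, 536 and 381 CPM and Cdk6, a kinase of the early cell cycle, at 902, 709 and 571 CPM, each lowest in the homozygous library. Hoxa9 and Hoxa10 had another order, at 124, 88.6 and 186 CPM and 39.9, 31.0 and 69.1 CPM, highest in the homozygous library. Sox4, at 20.5, 12.4 and 4.49 CPM, was, after Pbx3, the other member at least 2-fold lower in the homozygous cells. In all, 3 of 13 measured were higher and 2 at least 2-fold lower there, against 3.69% of all genes, with a median of -0.48, and 4 of 17 were higher in the heterozygous cells, with a median of -0.35.

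Lipid handling genes, the group nearest to Fabp4, had medians near those of all genes, at -0.08 in homozygous and -0.10 in heterozygous cells. Fabp5, the relative of Fabp4 in leukocytes, gave 11, 90 and 3 UMIs, or 11.9, 5.11 and 2.69 CPM. Plin2, which coats lipid droplets, stood at 176, 147 and 128 CPM, and Cpt1a, the gate of fatty acid oxidation in mitochondria, at 44.2, 35.8 and 23.3 CPM, both lowest in the homozygous cells. Hilpda, a lipid droplet protein that inhibits fat breakdown, had a heterozygous log2 ratio of 1.54 (0.30 to 3.18) from 5, 277 and 3 UMIs, and of 0.19 (-1.78 to 2.24) over the cells with Xist and no Y-linked UMI. Glycolysis genes, which supply most of a neutrophil's energy, were slightly lower in both knockouts, 16 of 19 in homozygous and 14 of 19 in heterozygous cells, with medians of -0.11 and -0.16, and 13 to 15 of 19 under the other scalings.

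Among survival and death genes, Fas, the death receptor, was highest in the homozygous cells at 24.8, 28.1 and 77.2 CPM, a log2 ratio of 1.64 (0.96 to 2.37). Mcl1, on which neutrophil survival depends, stood at 1115, 1034 and 1100.0 CPM. Of the myeloid transcription factors, Cebpb, which drives granulocyte production under stress, stood at 746, 793 and 1091 CPM, Stat3, which carries G-CSF signals, at 378, 277 and 225 CPM and Runx1 at 175, 302 and 198 CPM. Cebpb was highest and Stat3 lowest in the homozygous cells. The lists' medians were -0.12 and 0.13 for survival genes and 0.11 and -0.01 for the transcription factors, in homozygous and heterozygous cells.

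Beyond the lists, the 10 genes per direction whose ratio intervals lay farthest from no difference were picked out. In the homozygous mature cells the higher ones were Rsad2, Ifi27l2a, Isg15 and Slfn5 of the interferon list and Tex14, Rdm1, Penk, Cdk8, Lars2 and Syne3. Penk, the precursor of enkephalin peptides, stood at 100.4, 163 and 325 CPM (log2 ratio 1.70 (1.36 to 2.04)), Cdk8, a kinase of the Mediator complex, at 135, 157 and 369 CPM (1.45 (1.16 to 1.75)) and Lars2, the mitochondrial leucyl-tRNA synthetase, at 199.6, 199 and 515 CPM (1.37 (1.12 to 1.61)). In these 3 the homozygous library was highest and the wild-type library lowest or level with the heterozygous one. Tex14, at 25.9, 119 and 114 CPM, and Rdm1, at 15.1, 66.0 and 72.7 CPM, were low in wild type and close together in the knockouts.

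The lower ones in the homozygous cells included Pbx3, Fnbp1l, Raet1e, Eif2ak4, Jmy, Tspoap1, Slc4a7, Trps1 and Chn2. Fnbp1l, a regulator of actin at curved membranes, stood at 95, 98.6 and 19.8 CPM and was low in the homozygous cells alone. Raet1e, a stress ligand for the NK cell receptor NKG2D, stood at 88.5, 23.3 and 21.6 CPM. Eif2ak4 (GCN2, a sensor of amino acid lack) stood at 54.0, 22.5 and 11.7 CPM and Jmy, an actin nucleator, at 71.2, 28.8 and 18.0 CPM. Raet1e, Eif2ak4 and Jmy were highest in wild type and lower in both knockouts.

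In the heterozygous cells the higher genes were Pclaf, Cxcl10, Slc15a2, Rrm2, Fosb, Vill, Egr1, Rasl11b, Cacna1e and Tex14. Pclaf, which rides on the DNA clamp PCNA during replication, stood at 19.4, 155 and 69.1 CPM. Slc15a2, a peptide transporter, gave 6, 1096 and 0 UMIs, and Vill, a villin relative, 0, 264 and 1 UMIs. The heterozygous library held nearly all of the UMIs of both, but it also held most UMIs of the mature cells. The totals were 926699, 17623242 and 1113592 UMIs. Vill was at least 4.63-fold higher there against a floor of 3 counts in wild type. Cacna1e, a calcium channel subunit, stood at 20.5, 99.5 and 17.1 CPM, with a heterozygous ratio of 2.28 (1.63 to 3.01).

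The lower genes in the heterozygous cells included Wfdc17, Irx5, Satb1, Mctp2, Ifitm1, Raet1e, Snx7, Nars2 and Ifitm2. Wfdc17, a secreted protein of the whey acidic protein family, stood at 598, 105 and 455 CPM (-2.51 (-2.65 to -2.37)), and Mctp2 at 48.6, 8.97 and 45.8 CPM. In both the heterozygous library alone was low. Satb1, a chromatin organiser of lymphocytes and stem cells, stood at 231, 47.7 and 224 CPM (-2.28 (-2.49 to -2.05)), but over the cells with Xist and no Y-linked UMI at 237, 169 and 222 CPM, a heterozygous ratio of -0.48 (-0.84 to -0.13).

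The cells with Xist and no Y-linked UMI allow the comparisons to be repeated on 90, 94 and 89 mature cells. Mature cells with both Xist and Y-linked RNA, 9, 194 and 2 in number, were left out. The highest doublet scores fell on 1.48%, 9.37% and 1.99% of all mature cells. The part of mixed cells or free RNA in this repeat was not tested. Over the cells with Xist and no Y-linked UMI the interferon median was 0.59 in the homozygous and -0.45 in the heterozygous library, and the immediate early median 0.15 and 0.93. The direction of both groups was as in all mature cells. Rsad2 had a homozygous ratio of 3.07 (1.60 to 5.01), Isg15 one of 1.59 (0.97 to 2.25), and Ifi27l2a one of 1.71 (1.21 to 2.23). Fos had a heterozygous ratio of 2.0 (1.76 to 2.25), Egr1 one of 3.16 (2.57 to 3.82) and Cxcl2 one of 1.48 (1.36 to 1.60). The cell cycle medians were 1.20 and 0.89. Fosb had a heterozygous ratio of 3.02 (2.57 to 3.50), Jun one of 1.67 (1.5 to 1.84) and Klf2 one of 1.25 (1.15 to 1.35). Of the lower genes, Wfdc17 had a ratio of -1.86 (-2.21 to -1.52), Mctp2 one of -1.91 (-3.36 to -0.66), Ifitm1 one of -1.90 (-2.31 to -1.51) and Ifitm2 one of -1.03 (-1.20 to -0.87). Cacna1e, at 2.21 (1.37 to 3.16), and Pclaf, at 2.55 (1.75 to 3.44), were also on the same side of wild type as in all mature cells, and Fcnb, at 0.73 (0.42 to 1.04), was nearer to it. The heterozygous medians over these cells were -0.10 for secondary granule genes (5 of 12 higher), -0.03 for surface receptors (15 of 30), -0.10 for glycolysis genes (6 of 19) and -0.03 for the Hox, Meis and leukaemia-linked genes (5 of 14).

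**Figure D5:**
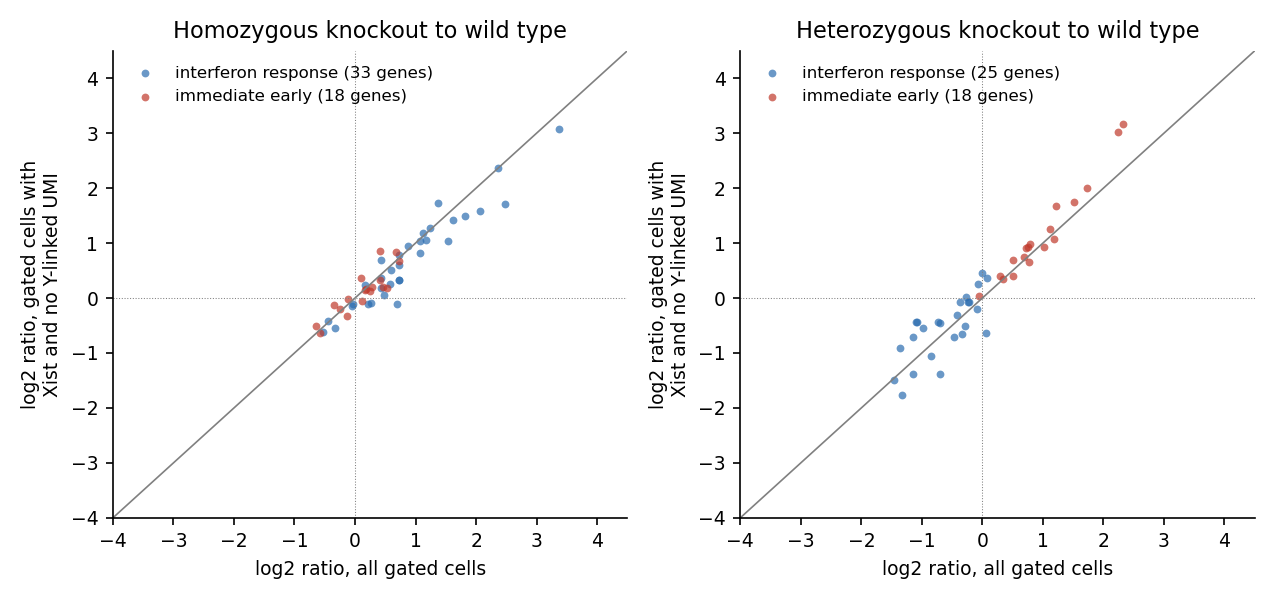
Log2 ratio to wild type over all mature neutrophil-like cells (x axis) against the same ratio over mature cells with Xist and no Y-linked UMI (y axis) for interferon-response (blue) and immediate early (red) genes, homozygous on the left and heterozygous on the right, with the line of equality. Most points lie near the line, with medians of 0.59 for interferon genes on the left and 0.93 for immediate early genes on the right over the cells with Xist.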

How the data were processed

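Single cells of mouse bone marrow were captured with Chromium 3′ v3 kits, per the labels' protocols. The authors deposited 1 matrix of raw UMI counts per library, made with Cell Ranger 8.0.1 per the file headers; Cell Ranger, STAR and mm10 are named in the submitters' processing notes, and the annotation release is not given in the sources used here. The 3 libraries held 9432, 10718 and 8115 barcodes and 77173735, 78426908 and 54160590 UMIs over 33696 genes (wild type, heterozygous, homozygous). Groups follow the genotype label. The titles are W1 for wild type, K1 for the library labelled heterozygous and H1 for the one labelled homozygous; what K and H stand for is not given in the sources used here, and if the knockout labels were exchanged, every statement on a knockout would be too.

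Cells were filtered and chosen as the report states, UMIs were summed per library and cell class, and genes with at least 20 UMIs in 2 libraries together were compared. Levels carry exact Poisson intervals, shares exact binomial (Clopper-Pearson) intervals and ratios exact conditional intervals, all at 95% and for counting error only; ratios of shares carry log-normal ones. No test was made, since each genotype has 1 library; a difference of 2-fold stands in its place. The scripts were tested on simulated data. Monocyte-marker cells held 3 or more of the 7 monocyte genes, and T and NK cells 2 or more of 10 markers. Doublets were scored with Scrublet in scanpy 1.11.5; its automatic threshold marked 0.0357%, 0.0251% and 0% of cells and was not used, and removal of the top scores was tried as an alternative. Promoters are those of RefSeq, GRCm38.p6.

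The members and gene lists were chosen with earlier results of these data known. Genes named beyond the lists were the 10 per direction ranked by how far the whole ratio interval lay from equality, among genes with at least 50 UMIs in 1 of the 2 libraries and a level in the higher library of at least 0.2 times that of its other cells. Haemoglobin, mitochondrial, ribosomal protein, sex-linked, antigen receptor, immunoglobulin and unnamed genes and the genes of the rule were left out of this ranking. Some genes that the ranking or a list picked are not reported here. List members given as examples were picked after their values were seen. BC100530 of the gelatinase granule list was not matched, and Ddx58 was matched as Rigi. Alternatives covered the cell filter, the rule for mature cells, depth, doublets, granule RNA, weighting, scaling, low counts and sex-linked RNA; the restriction to cells with Xist and a minimum of 10 expected UMIs were added after the data were seen.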

Additional observations from a re-analysis of the deposited data

How the results depend on the processing

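The limits of these values are set by 1 library per genotype, 135 and 151 mature cells outside the heterozygous library, and sex-linked RNA that differs between the pools. No paired analysis was possible because each genotype has 1 sample. The heterozygous share ratio, 11.3, was 14.2 with no mitochondrial limit, 13.6 with 5 UMIs of the 4 choosing genes required, 13.9 with 3 of them detected, 20.5 with cells thinned to 1000 UMIs and 7.59 over cells under 0.5% granule RNA. The homozygous ratio, 1.45, was 1.86 with 5 UMIs required and 2.16 after thinning. It was lower, at 1.33 (1.06 to 1.67), with no mitochondrial limit. Over cells under 0.5% granule RNA it was 1.39 (0.970 to 1.99), an interval that included equality. The homozygous interferon median, 0.89, was 0.59 over cells with Xist and no Y-linked UMI and 0.57 with 3 choosing genes detected, and stayed between 0.57 and 1.02 wherever it could be given. The heterozygous median, -0.40, was -1.12 over cells with Y-linked RNA and no Xist (7 wild-type cells). Thinning and the Y-linked cells left under 6 measured interferon genes in the homozygous comparison, so they gave no median.

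Counts of genes past 2-fold moved with the number of UMIs behind them. The 263 genes higher in homozygous cells were 960 with 1 UMI in each library, 156 under 0.5% granule RNA, 137 with 3 choosing genes detected, 68 with at least 50 UMIs, 40 over Y-linked cells and 20 after thinning. As shares of the genes compared, these were 8.03%, 3.59%, 2.80%, 1.39%, 7.80% and 4.91%, against 3.61% in the main setting. The 269 lower genes were 1326, 101, 45 and 34 with 1 UMI in each library, at least 50 UMIs, Y-linked cells and thinning. Their shares were 11.1%, 2.07%, 8.77% and 8.35%, against 3.69%. The 892 genes higher in heterozygous cells were 279 with 10 expected UMIs, 235 over cells with Xist, 497 over Y-linked cells and 249 after thinning. Of the genes compared, these were 3.93%, 3.73%, 8.95% and 8.05%, against 7.61%. The 621 lower genes were 1936 with 1 UMI in each library, 85 with 10 expected UMIs, 231 over cells with Xist, 1431 over Y-linked cells and 304 with at least 50 UMIs. In shares these were 14.5%, 1.20%, 3.67%, 25.8% and 2.94%, against 5.3%. The limits on UMIs kept every mature cell and compared more genes (1 UMI) or fewer (50 UMIs), while the other settings named here, apart from 10 expected UMIs, left fewer cells. The cause of these shifts was not tested.

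Of the single genes at least 2-fold apart, 94 comparisons gave 1588 alternative values, of which 1573 kept their sign. The limits on UMIs leave a gene's ratio unchanged, so their values could not change sign. Other totals and centring shift all ratios alike by a small amount. Such values are in the tally, which therefore overstates how far the signs were put to the test. The values that changed sign with 3 choosing genes detected were Top2a (-0.40), Tex14 (-0.012), Pclaf (-1.65) and Rasl11b (-1.82) in the homozygous cells. Over Y-linked cells (4 homozygous) they were Pbx3 (0.35), Penk (-0.97), Cdk8 (-0.12), Slc4a7 (0.033) and Trps1 (2.43) in the homozygous cells. The others were Snx7 (1.18, 5 UMIs required), Ctsg (-0.94, S100a8 and S100a9 at 1%), Top2a (-0.93, thinned) and Fabp5 (0.15, cells with Xist) in the heterozygous cells, and Cxcl10 in the homozygous cells (-0.16 with cells holding 2 monocyte genes left out, -0.18 under 0.5% granule RNA).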

Other observations

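Set against each other without wild type, the knockouts differed in further genes. In homozygous mature cells the 10 highest relative to heterozygous ones were Slfn5, Rsad2, Isg15, Rtp4, Ifi27l2a and Oasl2 of the interferon list, and Satb1, Cdk5rap1, Wfdc17 and Mctp2. Cdk5rap1, which modifies mitochondrial transfer RNA, stood at 4.32, 4.94 and 30.5 CPM in the wild-type, heterozygous and homozygous cells. The 10 lowest were Slc15a2, Col19a1, Pbx3, Mir17hg, Fos, Cacna1e, Cxcl2, Trip4, Fnbp1l and Cxcl10. Mir17hg, the host transcript of a microRNA cluster that promotes growth, gave 7, 520 and 2 UMIs, and Col19a1, a collagen gene, stood at 88.5, 275 and 40.4 CPM. MHC class I genes had a median log2 ratio to wild type of 0.28 in homozygous and -0.09 in heterozygous cells. H2-D1, a class I heavy chain, stood at 637, 639 and 825 CPM. Of the MHC class II genes, which mark dendritic and B cells, H2-Aa gave 3, 429 and 3 UMIs, H2-Ab1 2, 301 and 6 UMIs and H2-Eb1 4, 314 and 3 UMIs. Cd74, the invariant chain, stood at 32.4, 63.1 and 18.9 CPM. The UMI counts given for H2-Aa, H2-Ab1, H2-Eb1 and Mir17hg are not scaled and overstate the differences in level. The mature cells held 926699, 17623242 and 1113592 UMIs in all.

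Inside the heterozygous library, mature cells with Xist and no Y-linked UMI (94 cells) could be set beside those with Y-linked RNA and no Xist (1479 cells). No file assigns either kind to a mouse. Satb1 stood at 169 CPM in the cells with Xist and 37.2 CPM in those with Y-linked RNA, and Mecom at 902 and 513 CPM. Egr1 stood at 340 and 181 CPM, while Cxcl2, at 3057 and 3981 CPM, and Alox5, at 10.1 and 38.7 CPM, had the opposite order. H2-Aa, H2-Ab1, H2-Eb1 and Cd74, which mark dendritic and B cells, were all higher in the cells with Xist. Cd74 stood at 204 and 48.6 CPM and H2-Eb1 at 52.1 and 12.3 CPM. The part of such RNA in the heterozygous ratios over cells with Xist was not tested. Isg15, at 26.0 and 28.1 CPM, and Cacna1e, at 98.3 and 99.4 CPM, differed by less than counting error.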
